A study of Mus musculus with 18 samples.

Results

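The genes described here are 10 genes by which Muller glia, the radial glia of the retina, are commonly recognised: Slc1a3, Rlbp1, Glul, Sox2, Sox8, Sox9, Aqp4, Apoe, Dkk3 and Cyp26a1. They were chosen by name, not by a threshold on measured values, and they are 10 of 49943 genes with a window on chromosomes 1 to 19, X and Y and 10 of 35734 genes in the authors' deposited fibroblast table. Their chromatin was read in 2 multiome ATAC libraries (single-nucleus accessibility, in which a transposase cuts open DNA into fragments), and their RNA in the comparison of mouse embryonic fibroblasts. The control library carried mCherry and came from retina of C57BL/6 mice of the line GLAST-CRE ERT2 ; RosaYFP, labelled as Muller glia and described with tamoxifen at 14 days. GLAST is the protein that Slc1a3 encodes, so the Cre driver of this line is named after 1 of the 10 genes. The Ikzf1/4 library has the same tamoxifen description but carries its own title in place of tissue, line and strain. The run names of both libraries carry 48 h in the file headers, so the time of both and the line of the Ikzf1/4 library are not settled by the sources used here. The fibroblasts were R26-M2rtTA on C57BL/6, with doxycycline-inducible lentiviral Brn2 and Myt1l in both groups and Ikzf1 and Ikzf4 added in the treated group, collected at 48 h with 3 libraries per group.

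Muller glia span the retina, take up glutamate and turn it into glutamine, move water and potassium, and recycle retinoids for cones. They keep a set of Sox transcription factors from their progenitor past, and loss of glial genes with gain of neuronal ones is the readout by which their conversion into neurons is usually judged. Ikzf1 and Ikzf4 are zinc finger transcription factors, of which Ikzf1 (Ikaros) is known for conferring early temporal identity on retinal progenitors.

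Of the 52119123 fragments of the control library, 28.8% lay in 1955 barcodes with 3000 to 90000 fragments, which are called cells here. In the Ikzf1/4 library 31.6% of 29358834 fragments lay in 745 such barcodes. The median cell held 6248 fragments in the control and 10682 in Ikzf1/4, and 3 cell barcodes occurred in both libraries. Each group was 1 library, so no p-value was computed from nuclei. Intervals are exact 95% intervals and cover counting error only. A level is the number of fragments that overlap a gene and 2 kb on both sides, per 1000000 fragments of the cells counted (CPM).

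The cell type label was checked against 12 Muller glia markers, none of them among the 10 genes, in clusters built without the windows of the 10 genes. In 3 clusters of at least 50 cells (5, 6 and 7) 8 of 12 markers were at least 1.5-fold over all other cells. These clusters are called Muller glia-like. In clusters 5 and 6, 3 of 5 pericyte or smooth muscle markers were past that fold too. No Muller glia marker was among the 10 leading genes (highest folds) of clusters 5 and 6, and 1 was in cluster 7. Cluster 14 also had 8 of 12, but with 11 control and 9 Ikzf1/4 cells it was under the minimum of 50 cells and stayed unnamed among the other cells, where its 10 windows summed to 1039 CPM in the control. The Muller glia-like clusters held 528 of 1955 control cells (27.0%, 25.05 to 29.0) and 77 of 745 Ikzf1/4 cells (10.3%, 8.24 to 12.7). A further cluster of 93 control and 45 Ikzf1/4 cells had 10 of 12 markers past that fold, but Gfap, an astrocyte marker here, led it, so it was left unnamed and is called the Gfap-led cluster. The remaining cells, which carried markers of bipolar cells, rods, cones and microglia or stayed unnamed, were 1334 in the control and 623 in Ikzf1/4, so neither library was made of Muller glia alone.

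Promoter sequences show how differently these genes begin. RefSeq promoters on GRCm38.p6 matched 7 of the 10 genes, and 4 are printed here. Sox2 and Rlbp1 are shown because their most accessible 500 bp in Muller glia-like cells lay at this promoter and was largely closed in other cells. Glul is shown because the region around its start was also open in the cells outside both glial groups, and Slc1a3 because its most accessible element lay far from this sequence. Each runs 5′ to 3′ on the strand of the gene from 250 bases before the start to 50 after it, and capitals mark every match, on either strand, of TGGGAA (the Ikaros core), ACAAT (a SOX core), CCAAT (the CAAT box), TATAAA (the TATA box) and GGGCGG (the GC box), none of which contains another.
Sox2, chr3:34649745-34650044, plus strand: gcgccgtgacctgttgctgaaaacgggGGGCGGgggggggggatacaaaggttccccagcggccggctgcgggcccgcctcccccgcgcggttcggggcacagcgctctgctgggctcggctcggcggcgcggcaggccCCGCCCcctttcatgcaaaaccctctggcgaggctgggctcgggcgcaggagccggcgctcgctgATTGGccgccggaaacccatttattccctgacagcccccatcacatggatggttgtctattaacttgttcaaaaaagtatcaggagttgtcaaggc
Rlbp1, chr7:79386978-79387277, minus strand: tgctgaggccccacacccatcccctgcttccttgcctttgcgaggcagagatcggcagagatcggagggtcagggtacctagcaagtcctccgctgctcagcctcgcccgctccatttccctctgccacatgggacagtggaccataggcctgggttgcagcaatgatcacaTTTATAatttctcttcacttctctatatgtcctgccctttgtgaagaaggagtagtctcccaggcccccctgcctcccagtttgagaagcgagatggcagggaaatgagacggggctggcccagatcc
Glul, chr1:153899679-153899978, plus strand: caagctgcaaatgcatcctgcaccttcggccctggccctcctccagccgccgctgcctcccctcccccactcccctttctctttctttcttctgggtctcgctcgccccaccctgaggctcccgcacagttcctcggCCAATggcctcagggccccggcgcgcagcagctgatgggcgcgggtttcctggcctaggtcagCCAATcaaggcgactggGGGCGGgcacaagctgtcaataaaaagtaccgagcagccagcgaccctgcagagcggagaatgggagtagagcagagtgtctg
Slc1a3, chr15:8710758-8711057, minus strand: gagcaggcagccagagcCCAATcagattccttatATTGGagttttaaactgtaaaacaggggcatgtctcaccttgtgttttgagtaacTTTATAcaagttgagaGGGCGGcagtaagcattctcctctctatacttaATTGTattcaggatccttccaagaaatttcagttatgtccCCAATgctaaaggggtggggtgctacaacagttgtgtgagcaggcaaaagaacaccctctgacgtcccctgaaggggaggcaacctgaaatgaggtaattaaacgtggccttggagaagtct

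Across the 7 promoters, counting the start listed first where a gene has several, TGGGAA occurred in 0, against 25.5% of 27025 mouse promoters of the same length. The starts of Apoe listed later, left out of these counts, hold 1 TGGGAA (the third start) and 2 TATAAA matches (the second start). ACAAT occurred in 2 (Slc1a3 and Apoe), against 31.6% of promoters. CCAAT was found in 3 (Slc1a3, Glul and Sox2), against 37.9%, and TATAAA in 3 (Slc1a3, Rlbp1 and Cyp26a1), against 14.2%. GGGCGG was found in 5 (Slc1a3, Glul, Sox2, Sox8 and Cyp26a1), against 35.9%. These are matches of letters in a 300-base window and say nothing of binding. The printed promoters ranged from 45.3% G and C in Slc1a3 to 66.3% in Sox2.

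In the control, all 10 windows were higher in Muller glia-like cells than in any class named after neurons or microglia. Because the clusters were built without these windows, the levels were not used to define the class, but cells of 1 library are not replicates and the levels are given as a description. In the control 9 of the 10 windows were at least 2-fold higher in Muller glia-like cells than in all other cells, where 4.55% of 12450 protein-coding windows were. In Ikzf1/4 all 10 were, where 10.2% of 4500 windows were. The median over the 10 was 3.54-fold in the control and 4.34-fold in Ikzf1/4, against 0.927 and 1.05 over all windows tested. At least 50 fragments on both sides were needed for those backgrounds, which 9 of the 10 windows had in the control and 8 in Ikzf1/4.

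Among the genes of glutamate handling, Slc1a3, which encodes the glutamate transporter GLAST, stood at 168.6 CPM in Muller glia-like cells of the control (155 to 183) and at 177 in those of Ikzf1/4 (149 to 209). In control cells the next class for Slc1a3 was microglia-like, at 97.02, and the lowest was rod-like, at 18.9. Glul, which encodes glutamine synthetase, stood at 219 (204 to 236) in the control and 272 (237 to 310) in Ikzf1/4, and no class was below 43.3 in the control. Both genes were thus highest in glia, but Glul kept a base level in every class. Per kb of window, Glul had 15.9 CPM per kb in control Muller glia-like cells, the highest of the 10, and Slc1a3 2.09. These values depend on the length of the window, which was 13.8 kb for Glul and 80.7 kb for Slc1a3.

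The retinoid genes differed from each other in depth and in spread. Rlbp1 encodes the retinaldehyde-binding protein of the visual cycle and stood at 81.6 (72.3 to 91.9) in the control and 96.0 (75.9 to 120) in Ikzf1/4. Its next class in the control was cone-like cluster 2, at 45.5. The Rlbp1 window also overlaps the gene Fanci, and the bin 5 kb from its highest one, at the upper end of the annotated gene, was as open in other cells (10.9 CPM) as in Muller glia-like cells (10.9) of the control. Cyp26a1, whose enzyme degrades retinoic acid, had few fragments, with 7.69 CPM (5.02 to 11.3) in the control and 17.2 (9.42 to 28.9) in Ikzf1/4. In the control its interval overlapped that of microglia-like cells, at 7.06.

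The 3 Sox genes encode transcription factors kept from retinal progenitors, and each was more than 4-fold higher in Muller glia-like cells than in all other cells of both libraries. In the control, Sox2 stood at 74.8 in Muller glia-like cells (65.9 to 84.6) and at 9.82 in all other cells, a fold of 7.62 (6.09 to 9.59), the largest of the 10. Sox9 was 5.27-fold higher (4.14 to 6.73) and Sox8 4.67-fold higher (3.91 to 5.58). In Ikzf1/4 these folds were 5.57 for Sox2, 4.59 for Sox9 and 4.33 for Sox8. The range over the 10 genes was 1.90 (Cyp26a1) to 7.62 in the control and 3.24 (Cyp26a1) to 6.22 (Dkk3) in Ikzf1/4. The windows of Sox2 and Sox8 each overlap that of a noncoding gene, Sox2ot and Cerox1.

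Of the channel and secreted proteins, Dkk3, a Dickkopf-family glycoprotein, was 5.04-fold higher in Muller glia-like cells than in all other cells of the control (4.49 to 5.66) and 6.22-fold higher in Ikzf1/4 (5.25 to 7.36). Dkk3 stood at 213 CPM (197 to 229) in control Muller glia-like cells against 42.2 in all other cells, and at 278 (243 to 317) against 44.7 in Ikzf1/4. Aqp4, the water channel, stood at 32.2 (26.5 to 38.9) against 8.79 in the control and at 35.7 (23.9 to 51.3) against 7.80 in Ikzf1/4. Aqp4 had 0 fragments in microglia-like cells of Ikzf1/4 and 2 in those of the control. Apoe, the lipid carrier that macrophage-lineage cells also make, stood at 42.3 (35.6 to 49.8) in control Muller glia-like cells and at 22.1 in microglia-like ones. The Apoe window overlaps those of Apoc1 and Tomm40. In control cells outside the Muller glia-like class and the Gfap-led cluster, the bin 2 kb from its highest one had 2.96 CPM. The highest bin had 2.24 there. In Ikzf1/4 Apoe was the only gene of the 10 whose highest named class was not Muller glia-like, with 66.7 in 18 microglia-like cells and 64.0 in Muller glia-like cells, intervals overlapping.

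**Figure D1:**
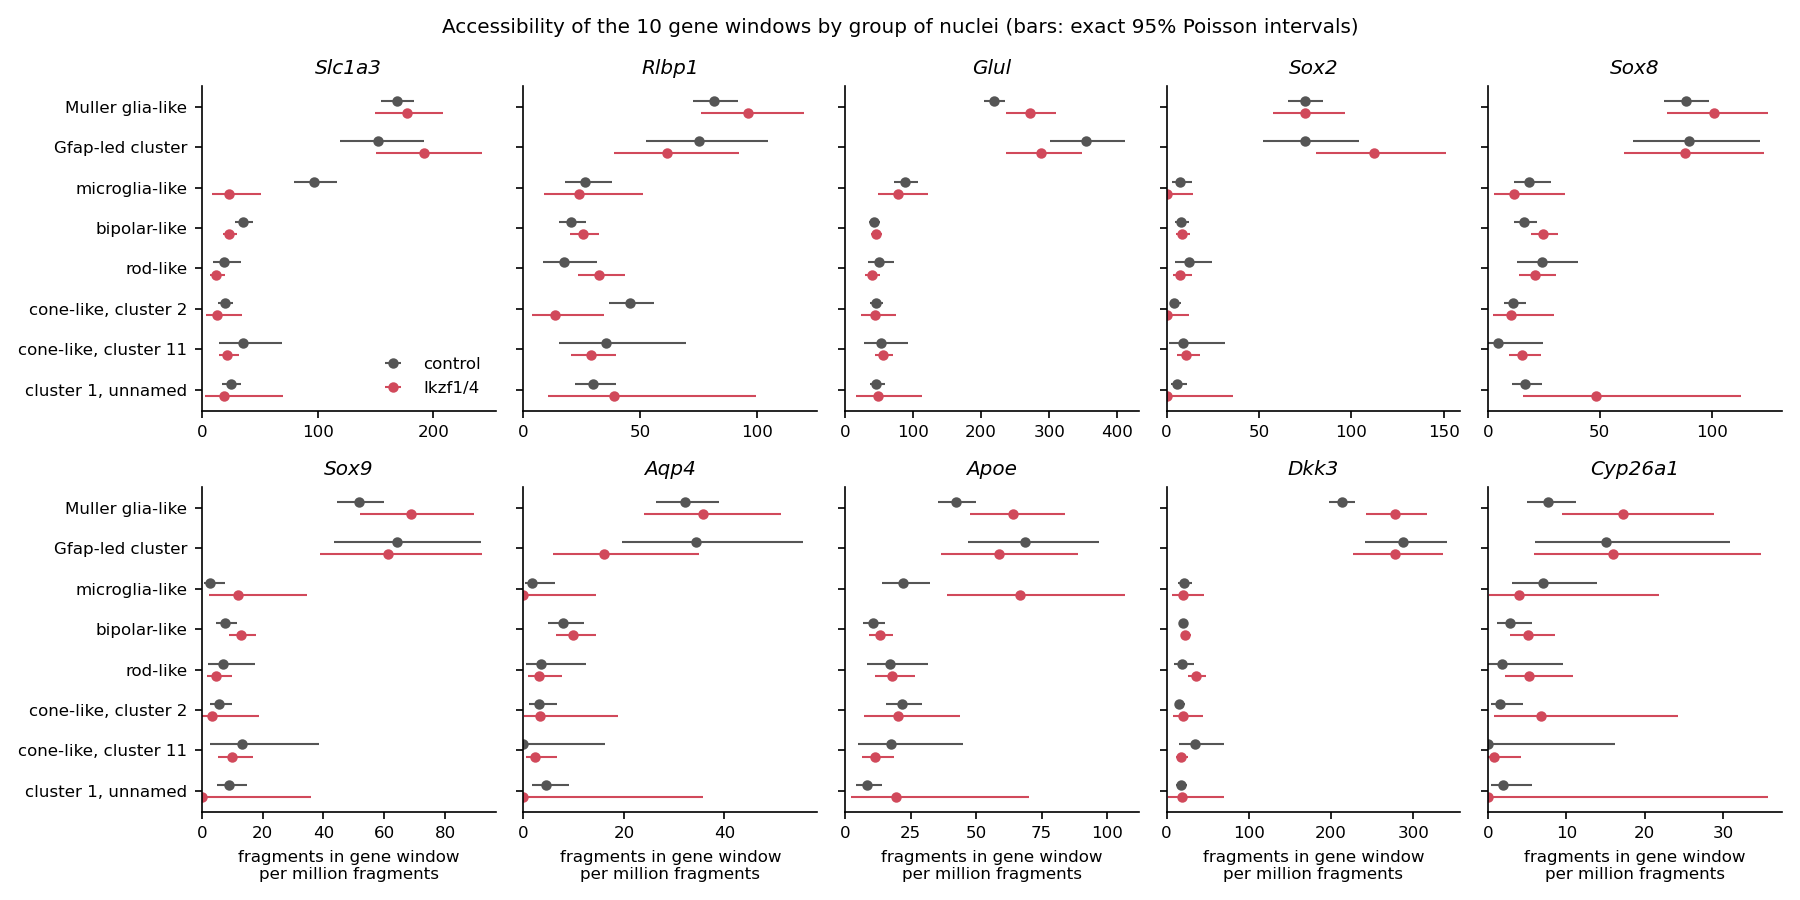
Fragments in CPM in the windows of the 10 genes (horizontal axes) for 8 groups of nuclei, control in grey and Ikzf1/4 in red, with exact 95% Poisson intervals of 1 library each. Muller glia-like cells and the Gfap-led cluster lie to the right of the other groups in most panels, while Slc1a3 reaches 97.02 in control microglia-like cells and Apoe 66.7 in those of Ikzf1/4.

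The order of the classes was checked for neighbours that could not be separated. In the control the interval of Muller glia-like cells did not overlap that of the next among the named classes and cluster 1 for 9 genes, the exception being Cyp26a1. In Ikzf1/4, with 77 such cells, the intervals were apart for 6 genes and overlapped for Rlbp1, Sox8, Apoe and Cyp26a1. For Rlbp1 and Sox8 the overlap was with the unnamed cluster 1 only. It had 16 Ikzf1/4 cells, with 4 fragments for Rlbp1 and 5 for Sox8. Both genes were apart from every other named class. The next named class was rod-like for Rlbp1, at 32.4 CPM, and bipolar-like for Sox8, at 24.6. How often other windows were apart in this way was not computed. The Gfap-led cluster stood above or beside the Muller glia-like class: the 10 windows summed to 1216 CPM (1118 to 1320) in its control cells, against 979 (946 to 1013) in Muller glia-like cells, 292 in microglia-like cells and 164 to 202 in the other named classes and cluster 1. In Ikzf1/4 the sums were 1171 (1064 to 1286) in the Gfap-led cluster and 1185 (1111 to 1262) in Muller glia-like cells. Within the class, the 3 Muller glia-like clusters summed to 921, 927 and 1196 in the control and to 1149, 1080 and 1526 in Ikzf1/4.

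The 10 windows were also counted in single cells. Every cell was thinned to 3000 fragments for this. Fragments in at least 2 of the 10 windows were held by 75% of 528 control Muller glia-like cells (71.1 to 78.6). In Ikzf1/4 they were held by 81.8% of 77 (71.4 to 89.7). The Gfap-led cluster was alike, with 77.4% of 93 control cells (67.6 to 85.4) and 77.8% of 45 in Ikzf1/4 (62.9 to 88.8). The share was 7.51% in control bipolar-like cells and 9.47% in rod-like cells. Microglia-like cells had 21.4% in the control (14.2 to 30.2) and 11.1% of 18 cells in Ikzf1/4 (1.38 to 34.7). Other sets of windows were not counted in this way. Across 28 points (clusters in each library), the level of each gene followed the mean of the other 9 with a Pearson r of 0.688 (Cyp26a1) to 0.938 (Dkk3). These points share libraries and depth, and the correlation is a description.

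Among 11498 other windows ranked by their likeness to the mean of the 10 over these 28 points, Lhx2 came closest (r = 0.954), followed by Col9a1 (0.946), Adgra2 (0.937), Wdr1 (0.929) and Cdc42ep1 (0.927). Lhx2 and Col9a1 are on the marker list that named the clusters.

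Over all cells together, the windows were lower in Ikzf1/4 than in the control for most of the 10 genes. In such sums, fewer cells of a type and less signal per cell cannot be told apart. The level in Ikzf1/4 was at most 0.8 of the control level for 3 genes (background 9.29% of 15918 protein-coding windows) and at least 25% higher for 1 gene (background 18.2%). None of the 10 was 1.5-fold lower (background 2.76%) or 1.5-fold higher (background 2.62%). Slc1a3 went from 77.8 to 53.9 CPM, a ratio of 0.69 (0.62 to 0.77). Sox2 went from 24.5 to 18.9, a ratio of 0.77 (0.64 to 0.93), and Aqp4 from 14.1 to 10.2, a ratio of 0.73 (0.57 to 0.93). These were the 3 lower windows, and all 3 intervals lay below 1. Cyp26a1 was the higher one, from 4.87 to 6.36, with an interval of 0.91 to 1.87 around its ratio of 1.31 that includes 1.

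The other 6 genes lay closer to 1. Rlbp1 was at 0.82 (0.71 to 0.94), Glul at 0.82 (0.75 to 0.89) and Dkk3 at 0.81 (0.73 to 0.89). Sox8 was at 0.87 (0.75 to 1.01), Apoe at 0.96 (0.80 to 1.15) and Sox9 at 1.02 (0.85 to 1.24). Of the 10 ratios 8 were below 1, as were 32.2% of all windows. The 10 windows summed gave 0.81 (0.78 to 0.85). Because the median of all windows was 1.09, the sum relative to that median was 0.75 (0.72 to 0.78).

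The Muller glia-like share of cells was lower in Ikzf1/4 as well (27.0% and 10.3%). That of the Gfap-led cluster was 4.76% (3.86 to 5.80) in the control and 6.04% (4.44 to 7.999) in Ikzf1/4, and both together held 31.8% and 16.4%. As a description, each cluster of the control was kept at its own level and weighted by its share of fragments in Ikzf1/4. The levels weighted by these shares gave ratios of 0.69 to 0.89 for the 10 genes. The measured ratio lay below that value for 2 genes, Slc1a3 (0.69 measured, 0.80 from shares) and Aqp4 (0.73 and 0.81), and above it for the other 8, most for Cyp26a1 (1.31 and 0.89) and Sox9 (1.02 and 0.79). This was computed for the 10 genes only, so no share of all windows stands beside these counts. The part of the cell shares in the measured ratios was not tested. Over all cells the median measured ratio of all windows was 1.09. In the fragments of barcodes with under 3000 or over 90000 fragments, 9 of the 10 ratios had an interval that includes 1, with values from 0.86 to 1.10. The exception was Aqp4.

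Over all Muller glia-like cells, the ratios of the 10 whole windows ran from 1.003 (Sox2) to 2.24 (Cyp26a1), and the median of all windows was 1.14. At least 25% higher were 4 genes (background 30.4% of 4499 windows), and 0 were at or below 0.8 of the control (background 4.11%). Past 1.5-fold, 2 genes were higher, Apoe and Cyp26a1 (background 7.36%), and 0 lower (background 0.645%). The 4 of 10 lie close to the share of all windows that passed the same threshold. The 10 windows summed gave 1.21 (1.13 to 1.30), and 1.06 relative to the median of all windows (0.99 to 1.14). Windows with at least 50 fragments in both libraries entered the background, which 8 of the 10 had, Aqp4 and Cyp26a1 being below it.

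The 4 higher genes were Apoe, at 1.51 (1.08 to 2.09), Dkk3, at 1.31 (1.12 to 1.52), Sox9, at 1.33 (0.97 to 1.81), and Cyp26a1, at 2.24 (1.08 to 4.45) on 26 and 14 fragments. The class was spread differently over clusters 5, 6 and 7, with 214, 161 and 153 cells in the control and 13, 38 and 26 in Ikzf1/4. By cluster, ratios above 1 were found for 8, 8 and 9 of the 10 genes. Over all Muller glia-like cells 26.1% of 4499 windows were below 1, and the share by cluster was not computed. Sox2 was at 0.70 (0.22 to 1.69) in cluster 5, 1.28 (0.87 to 1.86) in cluster 6 and 0.70 (0.33 to 1.34) in cluster 7, and Slc1a3 at 0.94, 0.95 and 1.28, all with intervals that include 1. Sox9 was at 1.46 in cluster 5, 0.87 in cluster 6 and 2.19 in cluster 7, and at the lower clustering resolution its ratio in the class was 0.99, below 1. Glul was at 1.24 (1.06 to 1.44), while Slc1a3, the lowest over all cells, was at 1.05 (0.87 to 1.26). The remaining ratios were 1.18 for Rlbp1, 1.14 for Sox8 and 1.11 for Aqp4, with intervals that include 1. Libraries differed in depth here too: the median Muller glia-like cell held 5572 fragments in the control and 8374 in Ikzf1/4. Fragments shorter than the DNA of a nucleosome made up 62.4% in the control and 50.9% in Ikzf1/4. Of the 10 windows, 9 had a lower short share in Ikzf1/4, and the share of all windows that did was not computed. The change was small for Sox2 (70.8% and 68.9%) and Cyp26a1 (65.4% and 64.3%), with overlapping intervals. With those short fragments alone the summed ratio was 1.20 (1.09 to 1.32), and with all cells thinned to 3000 fragments it was 1.23 (1.08 to 1.39). Among 5 astrocyte markers, Gfap was higher in the Muller glia-like cells of Ikzf1/4, at 34.5 against 11.8 CPM, a ratio of 2.91 (1.73 to 4.84) on 28 and 40 fragments. Aldh1l1 was at 1.32 (1.02 to 1.68), Pax2, S100b and Slc1a2 lay below 1 with intervals that include 1, and the 5 windows summed to 285 and 299 CPM, a ratio of 1.05 (0.91 to 1.21). Their part in the ratios of the 10 genes was not tested.

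In the Gfap-led cluster the summed ratio was 0.96 (0.85 to 1.09), and all 10 intervals included 1. There the values ran from 0.47 for Aqp4 (0.15 to 1.26) to 1.49 for Sox2 (0.93 to 2.41). Outside both glial groups the sum was 1.01 (0.95 to 1.07), but single genes departed from it. Slc1a3 was lower there, from 47.1 to 35.1 CPM, a ratio of 0.75 (0.64 to 0.86), and Sox9 was higher, from 7.54 to 12.9, a ratio of 1.71 (1.27 to 2.30). Sox8 was at 1.27 (1.02 to 1.58). In microglia-like cells, of which 112 were in the control and 18 in Ikzf1/4, Slc1a3 had 110 and 6 fragments, a ratio of 0.24 (0.087 to 0.55), while Apoe had 25 and 17, a ratio of 3.03 (1.53 to 5.83).

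**Figure D2:**
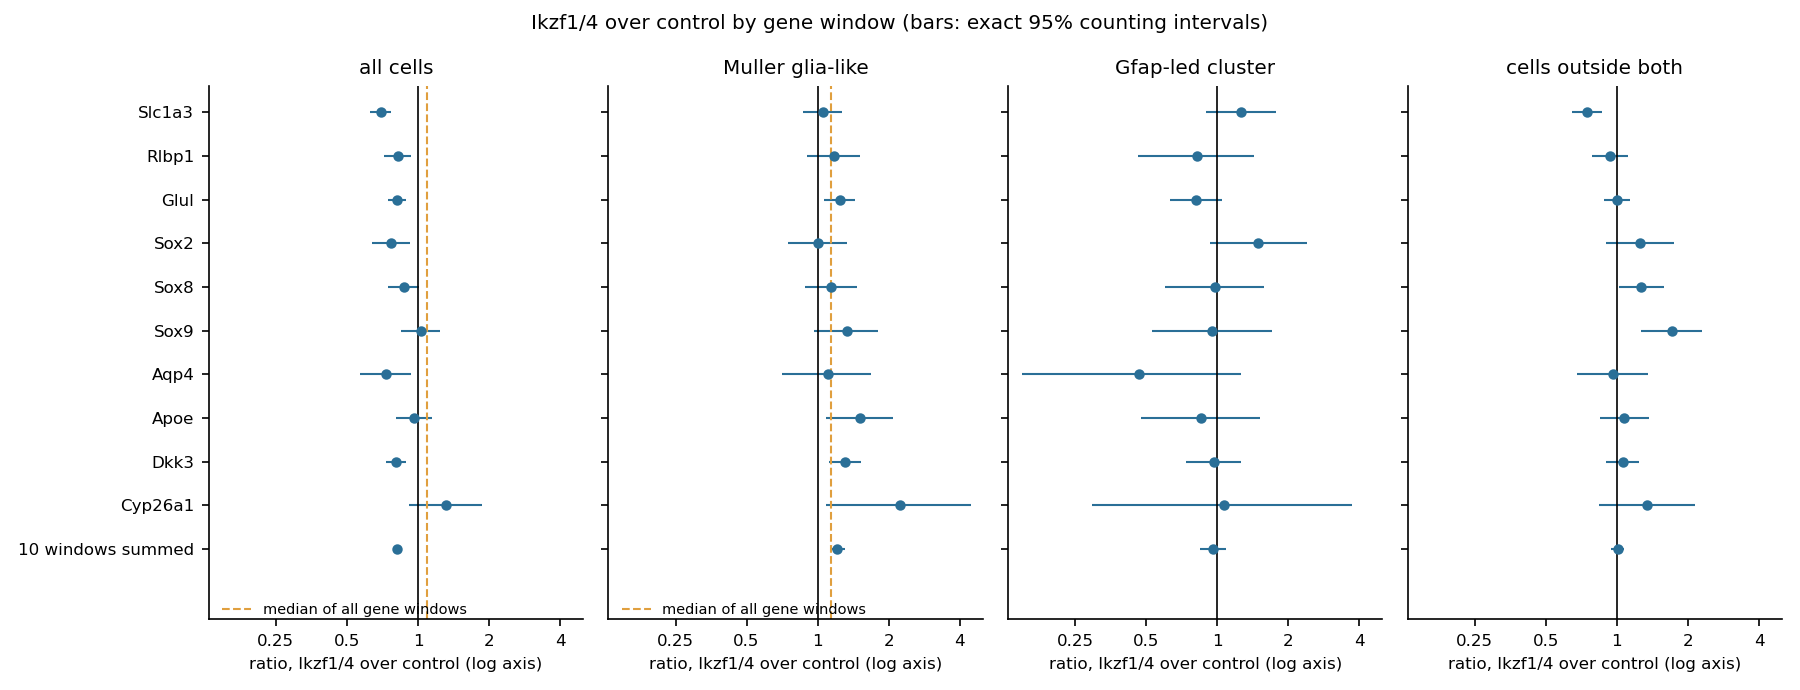
Ratio of Ikzf1/4 over control (log axis) for each of the 10 gene windows and their sum, over all cells, in Muller glia-like cells, in the Gfap-led cluster and in cells outside both, with exact 95% counting intervals. The summed point lies at 0.81 over all cells, 1.21 in Muller glia-like cells, 0.96 in the Gfap-led cluster and 1.01 outside both, and the dashed lines give the median of all gene windows (1.09 and 1.14).

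Windows of whole genes mix elements, so each window was divided into bins of 500 bp. In Muller glia-like cells 1 bin often carried much of the window. The highest bin was picked on these same cells. This choice favours high shares and high folds over other cells, so both are a description. The highest bin of Apoe held 60.5% of the fragments of its window, that of Sox2 58.3% on 7.73% of the length, and that of Sox9 45.9% on 5.24%. For Sox2 this bin ended at the start of the gene, reaching over the upstream bases of the promoter printed above, and was 12.2-fold higher in Muller glia-like cells than in cells outside both glial groups. For Rlbp1 the highest bin covered the whole printed promoter, and was 13.2-fold higher. The highest bin of Glul, just before its start, was 2.36-fold higher, with 23.0 CPM in other control cells.

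Around the annotated start (1 kb to each side), which was known for 7 genes, Sox2 and Rlbp1 had the largest folds. The control folds of Muller glia-like over other cells were 12.3 for Sox2 (9.11 to 16.7), 9.77 for Rlbp1 (6.24 to 15.7) and 6.26 for Apoe (4.40 to 9.01). They were 4.90 for Slc1a3, 3.45 for Sox8, 2.40 for Glul and 1.55 for Cyp26a1, of which the last had 8 fragments in glia. The start regions of the Sox2, Rlbp1 and Apoe genes were thus the most biased to Muller glia-like cells of those measured. The Glul start, with 37.4 CPM in other control cells, was the most open in those cells. Between the libraries, the start region of Rlbp1 in Muller glia-like cells was at 0.78 (0.42 to 1.36), below 1 unlike its whole window, that of Sox2 at 0.92 (0.66 to 1.27) and that of Slc1a3 at 0.98 (0.49 to 1.82). The start regions of Glul (1.30, 1.02 to 1.64), Sox8, Apoe and Cyp26a1 had ratios above 1.

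Slc1a3 and Dkk3, by contrast, were led by bins well inside the gene. For Slc1a3 the bin at chr15:8659624-8660123 lay 50934 bp downstream of the start, within the gene, held 25.4% of the window's fragments on 0.620% of its length, and was 22.4-fold higher in Muller glia-like cells than in cells outside the glial groups. For Dkk3 the bin at chr7:112143019-112143518 lay within the gene, held 18.1% of its fragments and was 19.1-fold higher. The largest such fold, 33.9, was that of a bin in Aqp4, on 28 control and 9 Ikzf1/4 fragments in Muller glia-like cells. In the cells outside the glial groups this bin had 4 and 1, so its fold rests on few fragments. These bins too were picked for their level in Muller glia-like cells, so the folds are a description. No exon annotation was used here, so these bins are not assigned to exons or introns.

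The leading bins were picked on the pooled Muller glia-like fragments, most of them from the control (150 of Dkk3 and 156 of Slc1a3, against 21 and 25 from Ikzf1/4), a choice that favours bins high in the control, so their ratios are a description. In Ikzf1/4 alone, the bin 13 kb from the leading one of Dkk3 was the highest of the gene, at 35.7 CPM. The Slc1a3 bin went from 46.1 to 30.8 CPM, a ratio of 0.67 (0.42 to 1.02), on 156 and 25 fragments. The Dkk3 bin went from 44.4 to 25.8, a ratio of 0.58 (0.35 to 0.92), on 150 and 21 fragments. By cluster the Dkk3 bin had 65 control and 0 Ikzf1/4 fragments in cluster 5, where the upper limit of the ratio is 0.89 with 13 Ikzf1/4 cells, and a ratio of 0.72 (0.35 to 1.37) in cluster 6 and of 0.73 (0.30 to 1.58) in cluster 7. The Slc1a3 bin was at 0.67 (0.13 to 2.03) in cluster 5, 0.58 (0.30 to 1.06) in cluster 6 and 1.02 (0.40 to 2.26) in cluster 7. In the Gfap-led cluster the Dkk3 bin was at 0.39 (0.17 to 0.81) and the Slc1a3 bin at 1.16 (0.50 to 2.65). In cells outside both glial groups the Slc1a3 bin was at 0.58 (0.26 to 1.22) and the Dkk3 bin at 0.88 (0.44 to 1.72). Among 1134 bins of the genome with at least 20 CPM in Muller glia-like cells and 5 times the level of other cells, 14.6% were at least 1.5-fold lower in Ikzf1/4 and 12.7% at least 1.5-fold higher. At or below 0.8 of the control were 29.3%, at least 25% higher were 23.9%, and the median ratio was 0.96. The Dkk3 bin ranked at 8.20% and the Slc1a3 bin at 14.6% of those bins from the lowest, but those bins were picked on the mean of both libraries and not on pooled fragments.

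Other bins of the same genes had other ratios. In Dkk3 the bin 16 kb from the leading one, at the upper end of the gene in coordinates, went from 17.5 to 33.2 CPM in Muller glia-like cells, a ratio of 1.90 (1.16 to 3.05), and the bin 13 kb to the other side from 29.9 to 35.7, a ratio of 1.19 (0.76 to 1.82). The leading bins of Sox2 (1.02, 0.69 to 1.48), Sox8 (1.07, 0.66 to 1.70) and Sox9 (0.91, 0.52 to 1.51) had intervals that include 1. That of Apoe was at 1.48 (0.95 to 2.26) and that of Rlbp1 at 0.83 (0.41 to 1.56). With fragments shorter than nucleosomal DNA alone, the ratio of the Slc1a3 bin was 0.38 (0.17 to 0.74), on 122 and 9 fragments. For the Dkk3 bin it was 0.57 (0.29 to 1.04), an interval that includes 1. With short fragments the leading bins of Sox2, Sox8, Sox9, Glul and Rlbp1 were at 1.35, 1.59, 1.24, 1.31 and 1.02. Those of Aqp4, Apoe and Cyp26a1 were at 1.43, 1.43 and 2.55. All these intervals include 1. The 1134 bins of the genome were not computed with short fragments. The part of the lower short share of the Ikzf1/4 library in these values was not tested.

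**Figure D3:**
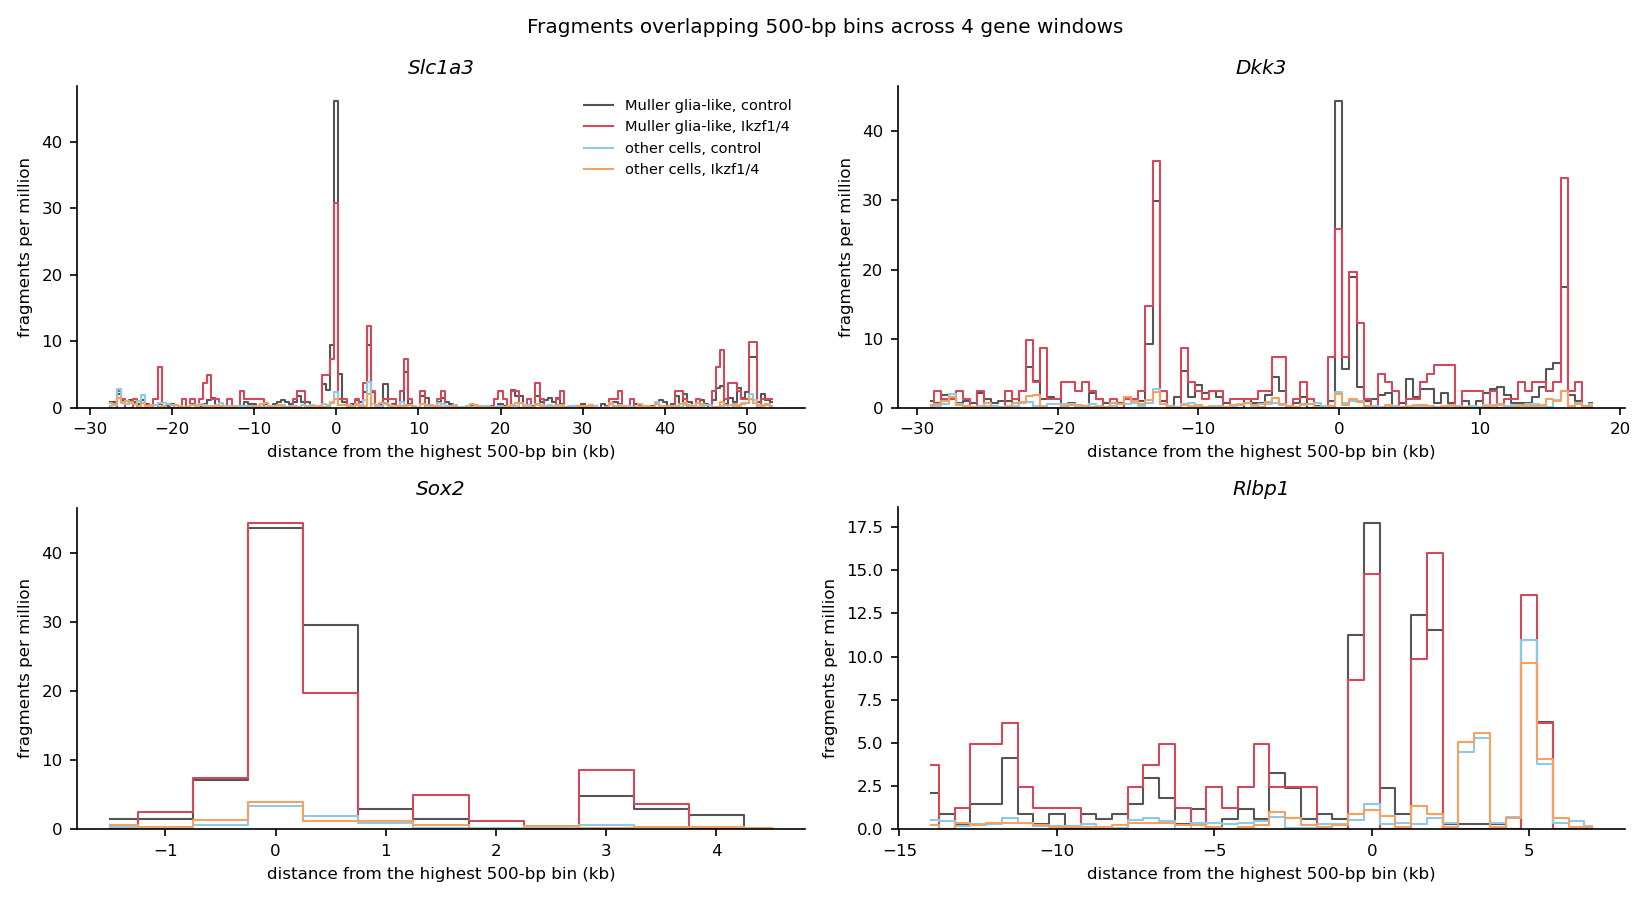
Fragments in CPM overlapping 500-bp bins (vertical axes) against distance in kb from the highest bin, along the chromosome, for Slc1a3, Dkk3, Sox2 and Rlbp1 in Muller glia-like and other cells of both libraries. The peak at distance 0 reaches 46.1 in control and 30.8 in Ikzf1/4 glia for Slc1a3, while for Dkk3 it reaches 44.4 and 25.8 and the bin at 16 kb stands at 17.5 and 33.2.

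In fibroblasts, which are not glia, the question was whether Ikzf1 and Ikzf4 moved the RNA of the same genes when added to Brn2 and Myt1l. In the authors' deposited table, a DESeq2 comparison of 3 libraries per group, 2 of the 7 genes with an adjusted p were called at 0.05, both higher (background 30.6% of 16757 genes, 15.3% higher and 15.4% lower). None of the 10 had an adjusted p under 0.05 and an absolute log2 fold change over 1 in the authors' deposited table (background 2.15%). The authors' deposited table gave Apoe, at 6030 normalised counts on average, a log2 fold change of 0.33 (SE 0.08, adjusted p from DESeq2 of 0.00034). Sox9, at 356 normalised counts, had a log2 fold change of 0.37 there (SE 0.13, adjusted p from DESeq2 of 0.017, the authors' deposited table). The 2 of 7 lie close to the share of all genes called.

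Dkk3 and Glul were abundant in these cells and not called. The authors' deposited table listed Dkk3 at 3945 normalised counts with a log2 fold change of -0.01 (SE 0.09, adjusted p from DESeq2 of 0.97). For Glul the authors' deposited table listed 1932 and a change of 0.03 (SE 0.06, adjusted p from DESeq2 of 0.75). Slc1a3 and Sox8 were scarce, at 34.6 and 35.1 normalised counts in the authors' deposited table. Their log2 fold changes in the authors' deposited table were -0.17 for Slc1a3 (SE 0.22, adjusted p from DESeq2 of 0.63) and 0.12 for Sox8 (SE 0.23, adjusted p from DESeq2 of 0.75). Aqp4, at 3.89, was listed with -0.09 (SE 0.14, adjusted p from DESeq2 of 0.71) in the authors' deposited table. Sox2, Cyp26a1 and Rlbp1 stood at 2.88, 1.47 and 0.552 normalised counts, and the authors' deposited table lists no adjusted p for them. The median change of the 7 genes was 0.03, against -0.00043 for all genes tested in the authors' deposited table.

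A list of 20 other genes of Muller glia and glial development showed calls in both directions. Of these 20 genes, 4 were called higher and 3 lower in the authors' deposited table, 8 were not called and 5 lacked an adjusted p (background 15.3% higher and 15.4% lower). Vim had the smallest adjusted p of the list in the authors' deposited table. It encodes an intermediate filament (log2 fold change -0.59, SE 0.06, adjusted p from DESeq2 of 3.5e-20). Next in the authors' deposited table came Rdh10, a retinol dehydrogenase (0.83, SE 0.09, adjusted p from DESeq2 of 8.2e-17). They were followed in the authors' deposited table by Notch1, the receptor (0.46, SE 0.09, adjusted p from DESeq2 of 1.3e-05), and Id3, an inhibitor of basic helix-loop-helix factors (-0.33, SE 0.07, adjusted p from DESeq2 of 3.6e-05).

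**Figure D4:**
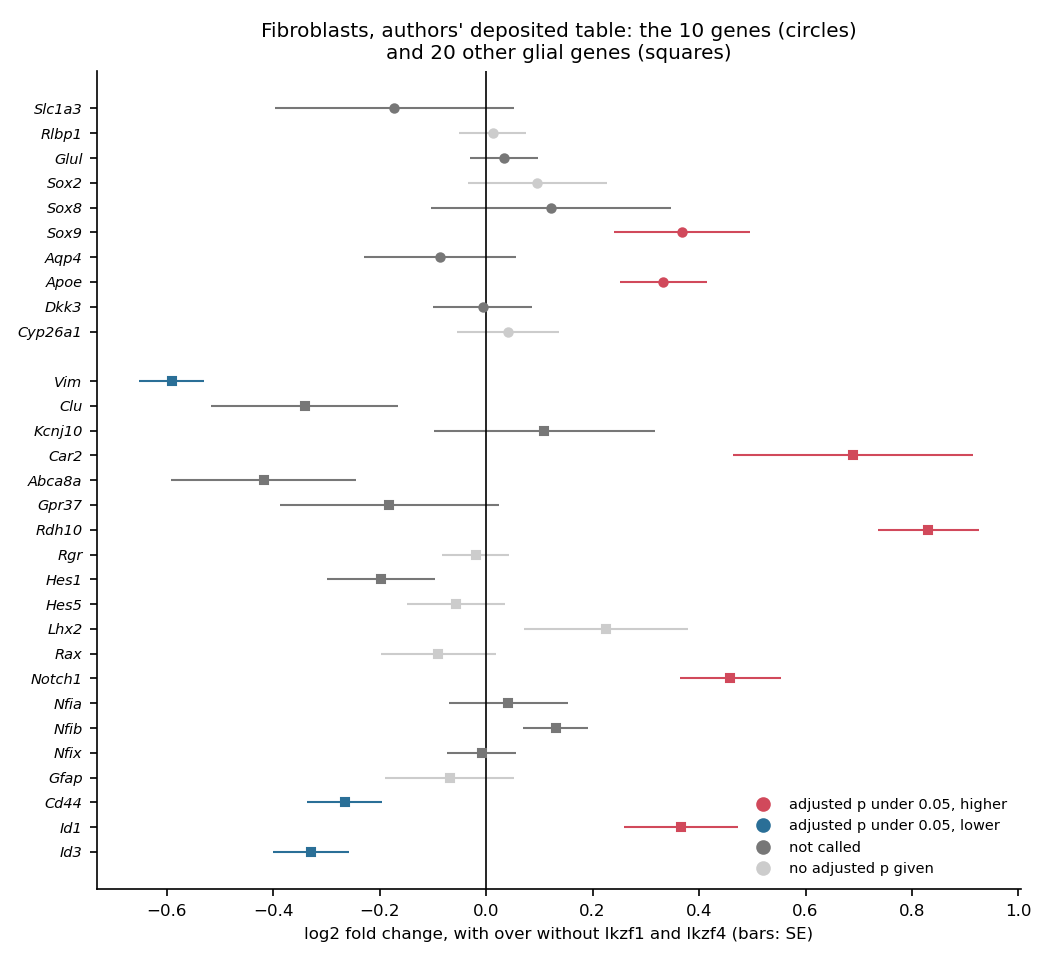
Log2 fold change with over without Ikzf1 and Ikzf4 in fibroblasts (horizontal axis, bars are SE), from the authors' deposited table, for the 10 genes (circles) and 20 other glial genes (squares). Sox9 (0.37) and Apoe (0.33) are the called genes among the circles, and the called squares run from -0.59 for Vim to 0.83 for Rdh10.

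In the nuclei the same 20 genes had a median ratio of 0.92 over all cells, with 5 at or below 0.8 of the control (background 9.29%) and 4 at least 25% higher in Ikzf1/4 (background 18.2%). The lowest were Abca8a, a lipid transporter (0.60, 0.50 to 0.71), and Cd44, an adhesion receptor (0.77, 0.66 to 0.89). The highest were Rgr, a retinal G protein-coupled receptor (1.53, 1.27 to 1.84), and Gfap, the filament of reactive glia (1.52, 1.21 to 1.92). In Muller glia-like cells 1 was lower (background 4.11%) and 8 were higher (background 30.4%) past those limits, with a median of 1.12, near the 1.14 of all windows. Of the 12 markers that named the class, 11 are on this list. Set beside the 10 genes, whose median was 0.82 over all cells and 1.21 in Muller glia-like cells, both lists lay below the all-window median over all cells.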

How the data were processed

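The fragments of both multiome libraries were called with cellranger-arc 2.0.1 on an mm10 reference, per the file headers. Each deposited line is a unique fragment of a barcode with its count of read pairs. Fragments, not read pairs, were counted here. Per the submitters' processing notes, the fibroblast table was made with DESeq2. Its aligner, its annotation, the DESeq2 version and any shrinkage of the log2 fold changes were not given in the sources used here. In the authors' deposited table the SE of Rlbp1 at 0.552 normalised counts was 0.06, and that of Slc1a3 at 34.6 was 0.22. The small SE of the scarcest genes can thus not be read as precision. In this table the authors deposited, per gene, a mean normalised signal, a log2 fold change, a standard error and a Wald statistic (score columns of their table), and raw and adjusted p-values. The transcript estimates and the peak lists of the fibroblasts were not used, because no source here ties the transcripts to genes or states the build of the peaks.

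Gene positions came from RefSeq on GRCm38.p6. A window is the gene with 2 kb on both sides, and windows of neighbouring genes can overlap it. Cells were barcodes with 3000 to 90000 fragments, and no doublet caller was run. The 16912 protein-coding windows other than those of the 10 genes and their neighbours were reduced to 29 components and clustered with leidenalg 0.10.2. A cluster took the name of the marker list with the largest share of genes at least 1.5-fold over other cells, and stayed unnamed if under 50 cells, if fewer than 3 markers or under 50% of the list passed, if its median gene-end enrichment was under 4, or if another list had more genes among its top 10. Ratios carry exact conditional binomial intervals and levels exact Poisson intervals (SciPy 1.17.1). At least 25% higher, or at most 0.8 of the control, was the threshold, and background windows had at least 50 fragments in both libraries. The ratio code was tested on simulated data. The 10 genes and the lists were chosen with earlier results of these data known, and all 10 genes are named. Values for other glial genes are given for the 4 with the smallest adjusted p in fibroblasts and for the 2 highest and 2 lowest ratios over all cells. The alternatives that were tried changed the cell filter, the scaling, the window, the fragments used, the clustering and the thresholds.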

Additional observations from a re-analysis of the deposited data

Results flagged for a closer look

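In the fragments of barcodes outside the cell range, which no comparison of cells uses, the Aqp4 window was higher in Ikzf1/4 than in the control, at 13.1 against 10.5 fragments per 1000000, a ratio of 1.246 (1.06 to 1.46, counting error only) on 263 and 390 fragments. Over cells the Aqp4 ratio was 0.73 (0.57 to 0.93). Of the 10 windows, 9 had intervals that include 1 in the barcodes outside the cell range. Windows of other genes were not computed there, so how often they depart from 1 is not known.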

How the results depend on the processing

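The summed ratio of the 10 windows over all cells (0.81) stayed below 1 in all alternatives run. It was 0.85 and 0.89 at minimums of 5000 and 10000 fragments, 0.77 per fragment in gene windows, 0.71 per fragment within 500 bp of gene ends, 0.89 in 1 kb around the starts of 7 genes, 0.77 with fragments shorter than nucleosomal DNA and 0.75 relative to the median of all windows. The 4 genes past the threshold over all cells became 2 at either minimum, 7 per fragment near gene ends and 0 at 1.5-fold. The share of all windows past the threshold was not computed at either minimum or per fragment near gene ends. Within Muller glia-like cells the sum (1.21) was 1.08 per fragment near gene ends, 1.12 with each library clustered alone and 1.06 relative to the median of all windows. Sox9 in these cells went from 1.33 to 0.99 at the lower clustering resolution. The fold of Muller glia-like over other cells (3.81 in the control, 4.54 in Ikzf1/4) was 3.57 in the control at a minimum of 10000 fragments, 4.94 in Ikzf1/4 with no flanks, 3.48 and 3.57 in 1 kb around the starts, 2.99 and 3.85 at the lower resolution, 3.98 in Ikzf1/4 when clustered alone, and 4.51 and 5.42 without the Gfap-led cluster. The Muller glia-like share of control cells was 24.9% and 18.9% at minimums of 5000 and 10000 fragments. It was 19.1% and 6.98% (control and Ikzf1/4) at the lower resolution, 7.92% in Ikzf1/4 clustered alone, and 31.8% and 16.4% with the Gfap-led cluster added. Of the 2 genes called in fibroblasts, 1 remained called at an adjusted p under 0.01 and 0 had an absolute log2 fold change over 1. Settings that involve the Gfap-led cluster, the median of all windows, or leaving out clusters 8, 12 and 14 were chosen after seeing the data.

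No paired analysis was possible because each multiome group is 1 library and the fibroblast gene values come from a table with no values per library. For the same reason leaving out each replicate was not run. Depth limits Cyp26a1 and Aqp4 most, with 14 and 29 fragments in Muller glia-like cells of Ikzf1/4.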
